A study of Mus musculus with 4 samples.

Results

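Pancreatic C1q macrophages were taken here as cell barcodes rich in the complement genes C1qa, C1qb and C1qc in single-cell RNA sequencing of sorted pancreatic leukocytes. Members were chosen by their counts of unique molecular identifiers (UMIs), which needed to reach 5 for the 3 C1q genes together. They held no UMI of the T cell genes Cd3e, Cd3d and Cd3g and no more than 1 of the B cell genes Cd79a and Ms4a1. Barcodes with under 500 genes or over 10% of mitochondrial UMIs were left out first. The rule found 226 barcodes among 10794 that passed the quality limits in the 2 pancreas libraries, and among 19357 in the series. There were 120 in the control library and 106 in the CD4-Cre library. Members were divided further into barcodes with at least 1 UMI of Folr2, Cd163 and Cd209f together, called scavenger-positive below, and barcodes with none, called scavenger-negative.

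The series compared mice with floxed alleles of Ocab (Pou2af1), a transcriptional coactivator best known from B cells, with mice that carried these alleles and a CD4-Cre transgene. The control library came from Ocabfl/fl females and the other from Ocabfl/fl.CD4-Cre females, all 12 weeks old and pre-diabetic, with cells of 4 mice pooled in each library. CD45+ cells were sorted by flow cytometry and profiled with a kit that reads transcript 5′ ends. A further pair of libraries held CD3-selected T cells of pancreatic lymph nodes from females 8 weeks old, and is not compared here. The strain was not given in the labels used here. Both pancreas groups carry the floxed alleles, and only the CD4-Cre group carries Cre. The Cd4 promoter is active mainly in T cells, but some myeloid cells also transcribe Cd4. With 1 library per group there was no replicate, so each difference is between 2 libraries, no test was possible, and every interval covers counting error only.

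C1q is the recognition part of the classical complement pathway. Its A, B and C chains are encoded by neighbouring genes, and tissue macrophages are a major source of them. Resident macrophages of many organs carry scavenger receptors and lectins such as CD163, which takes up haemoglobin-haptoglobin complexes, LYVE1, which binds hyaluronan, and the folate receptor beta encoded by Folr2. In the pancreas, macrophages lie both between the acini, which make digestive enzymes, and inside the islets, where they touch insulin-producing beta cells and present antigen to T cells.

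The targeted gene was not detected in the C1q macrophages. Pou2af1 had 0 UMIs in both libraries. A floor of 3 UMIs would be 2.57 CPM (UMIs scaled to the summed UMIs of the same barcodes) in control and 2.75 CPM in CD4-Cre. Cd4 itself had 22 UMIs in 11 control members (18.9 CPM) and 12 UMIs in 9 CD4-Cre members (10.99 CPM). In T cell barcodes without a C1q UMI, Pou2af1 was at 4.98 CPM (48 UMIs) in control and 0.560 CPM (10 UMIs) in CD4-Cre, and B cell barcodes held 221 and 245 CPM. These levels give no check of a deletion in macrophages.

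The label was checked with macrophage genes that the rule did not use. Adgre1, which encodes F4/80, was detected in 77.5% of control and 81.1% of CD4-Cre members, and Csf1r, the receptor for the macrophage growth factor CSF1, in 95% and 98.1%. Lyz2, the gene of a myeloid lysozyme, was found in 100% of both. The last pair does not set macrophages apart from monocytes, since the monocyte barcodes described next held Csf1r in 92% and 95.5% and Lyz2 in 98.7% and 98.5%. Adgre1 was found in 49.3% and 46.97% of these. Members were set beside monocyte and dendritic barcodes. These comparison barcodes were neither members nor lymphocytes, and were chosen by at least 2 UMIs of Ace and Ear2 for monocytes (75 and 66) and of Cd209a for dendritic cells (39 and 49). Ms4a7 and Apoe were both higher in the members, while Cd68, another macrophage gene, was higher only in control. Cd68 was at 598 and 429 CPM in members, 408 and 495 CPM in the monocyte and 452 and 441 CPM in the dendritic barcodes. Ms4a7 was at 270.2 and 152 CPM in members against 5.77 and 5.69 CPM in the monocyte barcodes. Apoe, which encodes a lipid carrier, was at 5923 and 3073 CPM, against 435 and 419 CPM in the monocyte and 2.05 and 44.1 CPM in the dendritic barcodes, where the control value rests on 1 UMI. Mertk, the receptor tyrosine kinase for apoptotic cells, was found in 19.2% and 16.04% of members.

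Promoters are shown for some of the genes the results turn on, C1qb for the rule, Cd163 for the split, Pf4 for the genes high in scavenger-positive members, and H2-M2 for those high in scavenger-negative ones. Each is the 250 bases before the RefSeq start on GRCm38.p6, read 5′ to 3′ on the gene's strand. They lie at chr4:136886201-136886450 on the - strand, chr6:124304401-124304650 on the + strand, chr5:90772185-90772434 on the + strand and chr17:37483555-37483804 on the - strand. Capitals mark the letters GAGGAA, a core bound by the myeloid factor PU.1, and TGCTGA, the half-site of MAF proteins, on either strand.
C1qb: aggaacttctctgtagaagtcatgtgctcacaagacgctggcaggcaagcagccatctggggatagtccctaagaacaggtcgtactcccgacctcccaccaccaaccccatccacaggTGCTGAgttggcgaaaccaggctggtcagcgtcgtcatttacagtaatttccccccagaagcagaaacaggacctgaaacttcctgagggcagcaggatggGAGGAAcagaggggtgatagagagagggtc
Cd163: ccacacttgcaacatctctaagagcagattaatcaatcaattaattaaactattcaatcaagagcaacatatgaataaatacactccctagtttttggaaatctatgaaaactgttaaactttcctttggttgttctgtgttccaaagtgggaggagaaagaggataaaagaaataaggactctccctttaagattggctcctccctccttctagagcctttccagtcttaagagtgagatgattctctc
Pf4: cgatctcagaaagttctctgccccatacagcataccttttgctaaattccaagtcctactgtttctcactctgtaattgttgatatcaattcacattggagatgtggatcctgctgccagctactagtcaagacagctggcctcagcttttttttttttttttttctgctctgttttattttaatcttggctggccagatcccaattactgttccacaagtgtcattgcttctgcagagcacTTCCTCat
H2-M2: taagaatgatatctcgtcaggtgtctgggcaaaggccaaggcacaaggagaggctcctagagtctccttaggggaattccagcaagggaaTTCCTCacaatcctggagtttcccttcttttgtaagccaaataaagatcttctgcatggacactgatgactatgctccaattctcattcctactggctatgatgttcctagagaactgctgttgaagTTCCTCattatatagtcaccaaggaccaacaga
GAGGAA was found once for C1qb and Pf4 and in 2 places for H2-M2, and TGCTGA once for C1qb, while neither was in the Cd163 window. Of 32851 windows of this length in the RefSeq table, 23.3% hold GAGGAA and 16.1% hold TGCTGA, so such matches are common. The C1q genes follow each other on the - strand of chromosome 4, C1qb from 136880129 to 136886187, C1qc from 136889804 to 136893065 and C1qa from 136895917 to 136898803 (GRCm38, GENCODE M21). Folr2 lies on chromosome 7 from 101839988 to 101857194, Cd163 on chromosome 6 from 124304656 to 124330527, and Cd209f on chromosome 8 from 4102787 to 4105835, all protein coding.

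Members were deep for these libraries. Their median was 8376 UMIs in control and 8377 in CD4-Cre, while all barcodes within the quality limits had medians of 3655.5 and 3680. Summed over members the totals were 1165875 and 1091968 UMIs. The C1q genes together, which chose the members, had a median of 132 UMIs per member in control, from 6 to 591, and 105 in CD4-Cre, from 5 to 404. They made up 1.62% and 1.12% of the UMIs of members. The chains were nearly balanced, with C1qa at 36.6% and 35.9% of C1q UMIs, C1qb at 34.5% and 36.5%, and C1qc at 28.8% and 27.7%. Most members lay far above the limit of 5 UMIs, since 109 and 102 had 20 or more. Just inside it, 11 and 4 barcodes with 5 to 19 C1q UMIs had Apoe at 857 and 956 CPM. Just outside, 16 and 20 barcodes with 1 to 4 C1q UMIs had Apoe at 7.09 and 603 CPM, and Cd209a, a lectin gene of dendritic cells, at 731 and 33.2 CPM. Inside the limit Cd209a was at 35.7 and 1465 CPM, all of the latter in 1 barcode. Any C1q UMI was held by 1.67% and 1.37% of B cell barcodes and 2.29% and 1.60% of T cell barcodes. Among these, 3 of 15 and 7 of 18 B cell barcodes had 5 or more C1q UMIs. The same held for 17 of 54 and 30 of 67 T cell barcodes, so the shares do not gauge free RNA alone. The libraries shared 41 barcode sequences within the quality limits, none of them a member in both.

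C1q macrophages formed a smaller share of the pancreatic leukocytes in the CD4-Cre library. They were 2.88% of 4168 barcodes in control (95% exact binomial interval 2.39 to 3.43) and 1.60% of 6626 in CD4-Cre (1.31 to 1.93), a difference of -1.28 percentage points (-1.90 to -0.690). Most barcodes were lymphocytes, so the share also moves with their number. Among barcodes that passed the lymphocyte limits of the rule, members were 18.5% of 649 and 15.5% of 685, and the difference of -3.02 points (-7.16 to 1.12) included 0. Scavenger-positive members were 1.22% and 0.347% of all barcodes, a difference of -0.876 points (-1.28 to -0.520). For scavenger-negative members the shares were 1.66% and 1.25%, a difference of -0.403 points with an interval from -0.906 to 0.0684. The lymphocyte limits removed 29 of 149 C1q-rich barcodes in control (19.5%) and 50 of 156 in CD4-Cre (32.1%), with median depths of 11586 and 14830.5 UMIs.

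Fewer of the C1q macrophages were scavenger-positive in the CD4-Cre library. Scavenger-positive barcodes were 51 of 120 members in control, or 42.5% (33.5 to 51.9), and 23 of 106 in CD4-Cre, or 21.7% (14.3 to 30.8). The difference was -20.8 points (-32.7 to -8.05). After each member was thinned to 3000 UMIs the shares were 36.9% of 111 and 13.6% of 103, with 9 and 3 shallower members left out, and the difference was -23.3 points (-34.7 to -11.2). Any UMI of these genes was found in 0.333% and 0.455% of B cell barcodes and in 0.467% and 0.571% of T cell barcodes, at median depths between 3430 and 3611 UMIs. Cd209a dendritic barcodes gave 23.1% of 39 and 38.8% of 49, at medians of 12872 and 11626 UMIs. All of these dendritic UMIs were of Cd163, at 30.8 and 78.1 CPM, and Folr2 and Cd209f had 0 there.

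**Figure D1:**
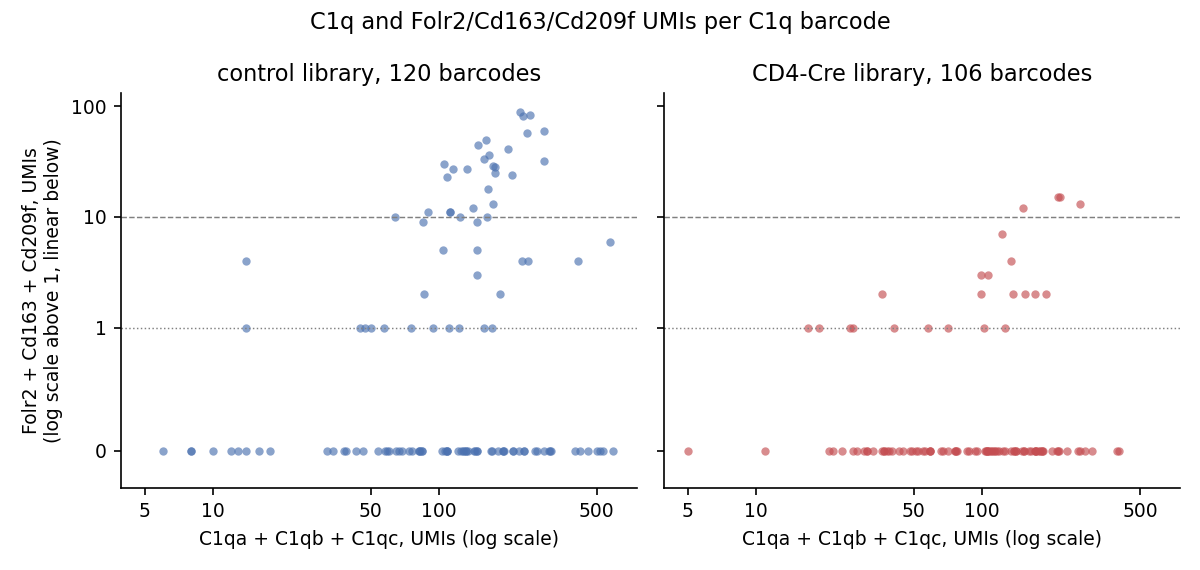
UMIs of C1qa, C1qb and C1qc (x axis, log scale) and of Folr2, Cd163 and Cd209f (y axis, log scale above 1) in each C1q barcode of the control and CD4-Cre libraries. The dotted line marks 1 UMI and the dashed line 10, and control reaches 89 scavenger UMIs where CD4-Cre reaches 15.

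Strongly marked barcodes were nearly all in control. Members with 10 or more scavenger UMIs, a limit set after the values were seen and called scavenger-high below, were 28 in control (23.3%, 16.1 to 31.9) and 4 in CD4-Cre (3.77%, 1.04 to 9.38), a difference of -19.6 points (-28.6 to -10.4). At 20 or more UMIs there were 19 control members and 0 in CD4-Cre, and 0 of 106 has an exact upper limit of 3.42%. Scavenger-positive members held a median of 10 such UMIs in control and 2 in CD4-Cre. All 3 genes occurred together in 23 and 3 members. Barcodes with exactly 1 scavenger UMI numbered 11 and 9, and these carried no Lyve1 UMI in either library. Their Cbr2 level was 143 and 15.6 CPM, the latter from 2 UMIs. Members with 2 or more scavenger UMIs had Cbr2 at 1426 and 436 CPM, and members with none at 31.9 and 16.5 CPM. The 9 CD4-Cre barcodes with exactly 1 had Cd209a at 576 CPM, where the 11 control ones had none, but 72 of the 74 UMIs lay in 1 barcode.

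**Figure D2:**
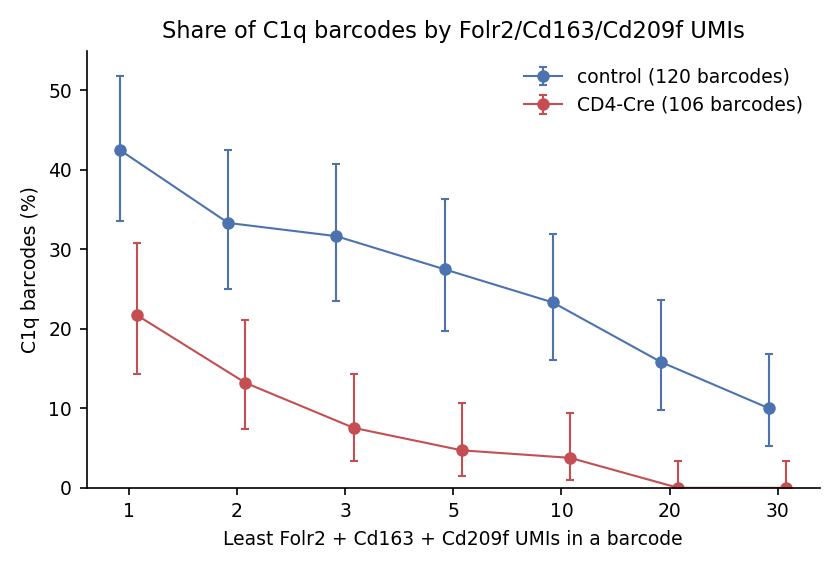
Share of C1q barcodes (y axis, %) that hold at least the number of Folr2, Cd163 and Cd209f UMIs on the x axis, with exact 95% binomial intervals as bars. Control lies above CD4-Cre at each of the 7 limits, from 42.5% against 21.7% at 1 UMI to 10.0% against 0 at 30.

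Several genes had similar levels in the scavenger-high members of both libraries, though CD4-Cre had only 4 such barcodes. Apoe was at 13304 CPM in control and 13136 CPM in CD4-Cre. Lyve1 was at 604 CPM (512.1 to 707.7) and 638 CPM (420.4 to 928.1). Cbr2, which encodes a carbonyl reductase, was at 1796 and 1299 CPM. F13a1, for a coagulation factor subunit that macrophages make, was at 1701 and 1583 CPM, and Hal was at 636 and 591 CPM. Other levels were lower in the CD4-Cre set. Fcna, the ficolin A gene, was at 1003 and 378 CPM, Pf4 at 2467 and 1465 CPM, and Ednrb, an endothelin receptor gene, at 367 and 0 CPM, with UMIs in 23 of the 28 control barcodes and in none of 4.

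Many genes differed across the split in both libraries. The split itself chose the barcodes, so these values describe it. Of 4473 genes that reached 25 UMIs in each library, 60 (1.34%) were at least 2-fold higher in scavenger-positive barcodes in both libraries and 67 (1.5%) at least 2-fold lower. Lyve1 was at 399.8 CPM in positive and 2.78 CPM in negative control members, and at 112 and 0 CPM in CD4-Cre. Cbr2 was higher in positive barcodes by 5.19 on the log2 scale in control and 3.97 in CD4-Cre. C4b, another gene of the classical complement pathway, was higher by 4.93 and 3.42. For Ltc4s, the leukotriene C4 synthase gene, the log2 ratios were 3.97 and 3.33, for Gas6, a bridge between apoptotic cells and their receptors, 3.67 and 2.18, and for the growth factor gene Igf1 3.62 and 2.97. Hal, the histidine ammonia-lyase gene, had 3.74 and 1.81. Ccl8 was higher by 2.96 and 2.70, but 1 barcode held 91.98% of its UMIs in CD4-Cre positive members. The remaining named genes, Zg16, Ctrl, Ctrc and 2210010C04Rik, had log2 ratios from 1.86 to 2.52. Zg16, Ctrl and Ctrc encode pancreatic secretory proteins, and the ratio of Ctrl in CD4-Cre became -0.50 after thinning to 3000 UMIs. The ranking of the split set no limit on the share of 1 barcode. For a separate list of acinar genes, 1 CD4-Cre positive barcode held 72.3% of the UMIs. The other 22 were at 938 CPM, against 959 CPM in negative members.

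Several inflammatory genes and single chemokine genes were higher in scavenger-negative members. The chemokine list as a whole went both ways, as 9 of 17 genes were 2-fold lower and 7 higher in positive control members (beside 7.78% and 7.51% of all genes), and 7 and 3 of 17 in CD4-Cre (beside 4.14% and 3.26%). Its summed level was 9326 CPM in positive and 7879 CPM in negative control members, and 8084 and 7179 CPM in CD4-Cre. Il1b, for interleukin-1 beta, was at 518 CPM in negative and 74.1 CPM in positive control members, and at 337 and 109 CPM in CD4-Cre. Mmp14, a membrane-bound matrix protease, was at 159.6 CPM in negative control and 54.5 CPM in negative CD4-Cre members, with 1 UMI among the positive ones of each library. The complement gene C3 was at 302.5 against 8.98 CPM, and at 113 against 9.91 CPM. H2-M2, a nonclassical major histocompatibility class I gene, was at 765 against 49.4 CPM, and at 195 against 23.1 CPM. Cxcl10, which encodes a chemokine that attracts T cells, had 227 UMIs, all in 11 negative barcodes, in the control library. In CD4-Cre, 92 of its 93 UMIs were in 3 negative barcodes. Log2 ratios of positive over negative barcodes in control were -2.91 for Acp5, -3.64 for Ccl4, -4.17 for Gngt2, -2.59 for Adgrg5 and -3.04 for Dram1, with ratios from -4.37 to -2.17 in CD4-Cre. The CD4-Cre ratio of Adgrg5 was 0.083 after thinning to 3000 UMIs. Tmem119 had 1 UMI in positive control members and 0 in CD4-Cre, against 56 and 44 in negative ones, and Klra2 had 1 and 0 against 35 and 33. Cxcl13, the B cell attractant, had 812 of 814 control UMIs in negative barcodes, but 664 lay in 1 barcode. In control, none of the 28 scavenger-high barcodes held a UMI of H2-M2, Mmp14, Cxcl9, Cxcl10 or Il1b, while 30, 26, 26, 11 and 43 of the 69 negative ones did. Of the 4 scavenger-high CD4-Cre barcodes, Mmp14, Cxcl9, Cxcl10 and Il1b had UMIs in 1 each and H2-M2 in none.

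**Figure D3:**
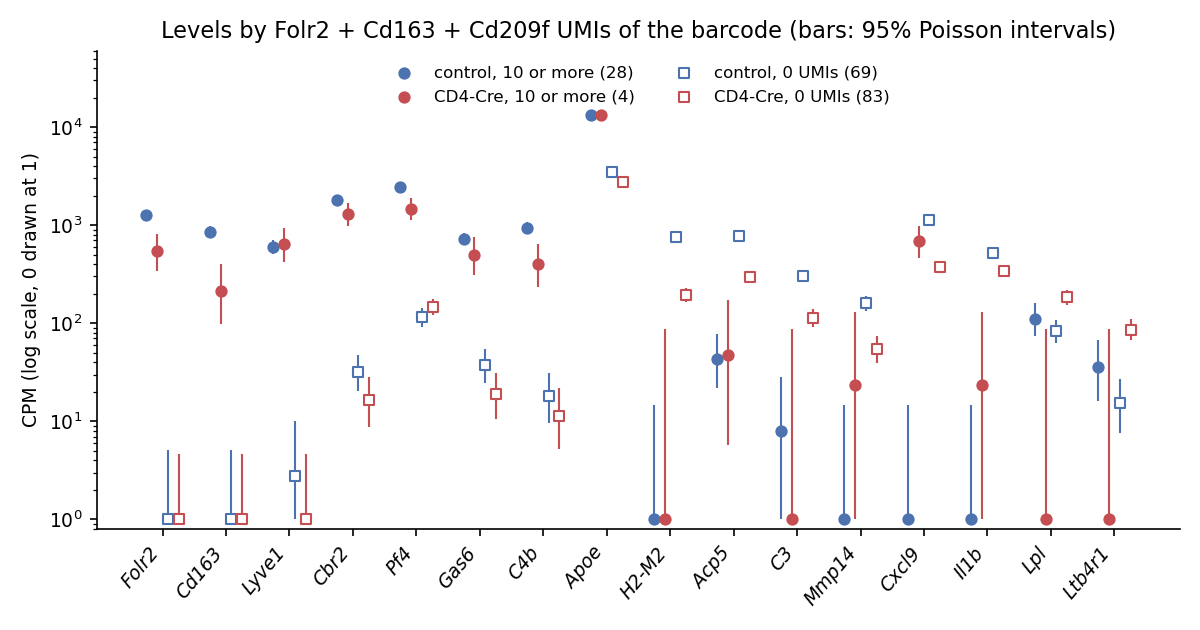
CPM (log scale, 0 drawn at 1) of 16 genes in scavenger-high barcodes (filled circles) and scavenger-negative barcodes (open squares) of control (blue) and CD4-Cre (red), with 95% Poisson intervals. Folr2 and Cd163 defined the sets, Apoe sits at 13304 and 13136 CPM in both high sets, and H2-M2 lies at 0 there against 765 and 195 CPM in the negative sets.

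Gene lists showed the same division in control. They were chosen with earlier results of these data known, and the 3 genes of the split belong to the resident scavenger list. Its values therefore describe the split and give it no separate support. Without the 3 genes of the split, all 19 measured resident scavenger genes were at least 2-fold higher in positive barcodes, beside 7.51% of all genes tested, with a median log2 ratio of 3.31. In CD4-Cre 12 of 19 were 2-fold higher, beside 3.26%, with a median of 1.48. Interferon-gamma response genes went the other way, as 10 of 20 were 2-fold lower in control positive barcodes, beside 7.78%, and 6 of 20 in CD4-Cre, beside 4.14%, with medians of -1.06 and -0.63. All 9 measured class II genes were lower in positive barcodes in both libraries, none by 2-fold, with medians of -0.63 and -0.24. H2-Aa, for example, was at 12509 CPM in positive and 19236 CPM in negative control members. Among transcription factors, Maf was at 305 against 58.3 CPM and Nr1h3, the liver X receptor alpha gene, had 1 UMI in positive and 107 UMIs in negative control members. In CD4-Cre its 7 UMIs among positive members lay in 1 barcode.

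Over all members, many resident scavenger genes were lower in the CD4-Cre library. Among 4960 genes that had 50 UMIs or more in total, 124 (2.5%) were at least 2-fold lower in CD4-Cre and 50 (1.01%) at least 2-fold higher. Folr2 was at 302 CPM (271.2 to 335.2; 43 barcodes) in control and 34.8 CPM (24.6 to 47.8; 13 barcodes) in CD4-Cre, with a ratio of -3.12 on the log2 scale (-3.64 to -2.63). Cd163 was at 202 and 25.6 CPM (-2.97, -3.60 to -2.41) and Cd209f at 348 and 24.7 CPM (-3.82, -4.44 to -3.25). Fcna was at 227 and 18.3 CPM, Cbr2 at 464 and 83.3 CPM, Gas6 at 206 and 37.6 CPM, Ltc4s at 183 and 31.1 CPM, and Cd209g at 124 and 14.7 CPM. Their log2 ratios lay between -3.63 and -2.45. Ednrb UMIs numbered 101 in 29 control barcodes and 6 in 6 CD4-Cre barcodes (log2 ratio -3.98, -5.46 to -2.81). Rcn3, a calcium-binding protein of the endoplasmic reticulum, was at 68.6 and 10.99 CPM and Colec12, a scavenger receptor with a collectin domain, at 48.9 and 8.24 CPM. Ly6i lay on the other side of the split. Its 54 UMIs in 13 control barcodes and 3 UMIs in 2 CD4-Cre barcodes were all in scavenger-negative members, with a log2 ratio of -4.08 (-6.40 to -2.45).

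The genes higher in CD4-Cre were led by Ltb4r1, which encodes a leukotriene B4 receptor. It was at 22.3 CPM (13 barcodes) in control and 111 CPM (27 barcodes) in CD4-Cre (log2 ratio 2.31, 1.69 to 2.98). Ltb4r1 was higher among positive barcodes (33.7 and 175 CPM) and negative ones (15.3 and 86.2 CPM) alike. Lpl, the lipoprotein lipase gene, was at 85.8 and 226 CPM (1.40, 1.06 to 1.75). Mcub, a regulator of the mitochondrial calcium channel, was at 78.05 and 191 CPM, found in 44 and 70 members. Aldh1a2, which makes retinoic acid, was at 31.7 and 73.3 CPM, Glipr2 at 24.02 and 87.0 CPM, and Olfm1 at 80.6 and 177 CPM. Ear1, a ribonuclease gene, was at 27.4 and 64.1 CPM, but in scavenger-positive members alone it was lower in CD4-Cre, at 60.6 and 42.9 CPM. Hepacam2, Sirpb1c, Atg101 and the neighbouring genes A530064D06Rik and 9830107B12Rik had log2 ratios from 1.21 to 1.87. Ccr2, the monocyte chemokine receptor, stayed under 2-fold with 313 and 485 CPM, or 61.7% and 86.8% of members. Ltb4r1 and Lpl had 0 UMIs in the 4 scavenger-high CD4-Cre barcodes. Cd209f and Cd209g, Ear1, Ly6i, Sirpb1c and C4b have close relatives in the genome, and how reads were shared among such copies was not given in the sources used here.

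**Figure D4:**
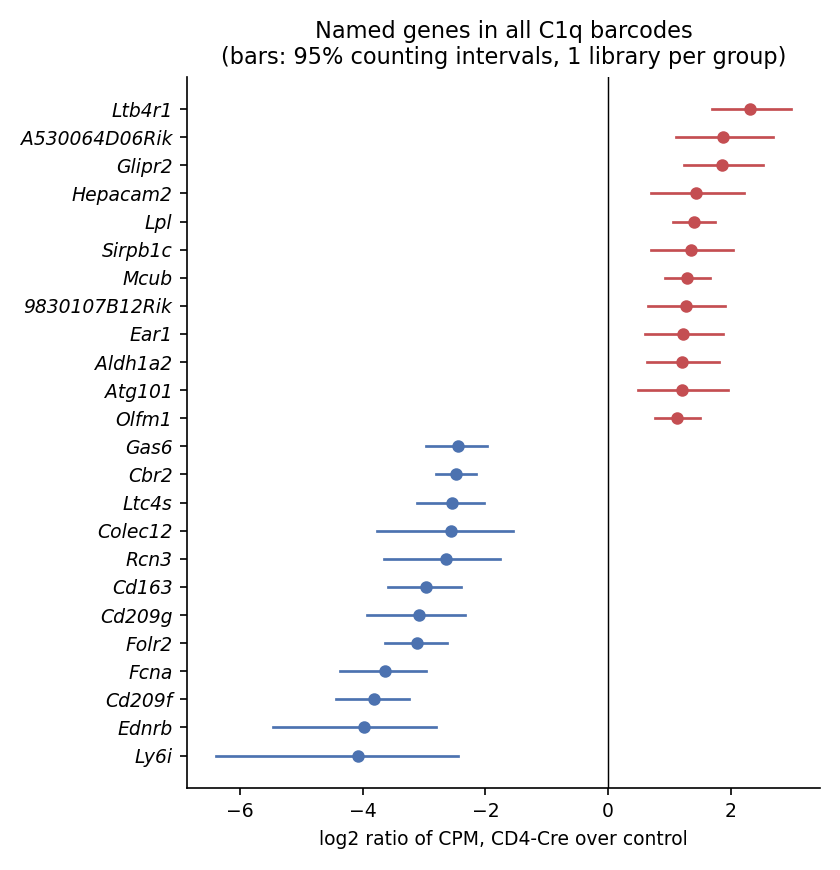
Log2 ratios of CPM (x axis, CD4-Cre over control) over all C1q barcodes for the 24 named genes, with 95% counting intervals as bars. The 12 lower genes run from -4.08 for Ly6i to -2.45 for Gas6 and the 12 higher genes from 1.13 for Olfm1 to 2.31 for Ltb4r1.

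Gene lists, chosen with earlier results of these data known, gave a wider view. Of 30 resident scavenger genes 27 were measured, 19 were 2-fold lower in CD4-Cre and 0 higher, with a median log2 ratio of -1.65. Without the 3 genes of the split 16 of 24 were lower, with a median of -1.46. Over all genes tested 2.5% were lower and 1.01% higher, with a median of 0.00137, and the lists that follow stand beside these shares. The summed level of the list over single members had a median of 4769 CPM in control, from 0 to 57558, and 3393 CPM in CD4-Cre, from 159 to 49109, so the libraries overlapped. Timd4, F13a1, Mrc1 and Cd209d, other genes of this list, were lower by under 2-fold, and Mgl2 and Ccl8 were at ratios of 0.30 and 0.53. Among 18 measured chemokine genes, 9 were 2-fold lower and 1, Cxcl1, higher, with a median of -0.97. Cxcl9, which attracts T cells through the same receptor as Cxcl10, was at 712 CPM (27 barcodes) and 297 CPM (19 barcodes), and Ccl4 at 145 and 50.4 CPM, with 52.1% of its control UMIs in 1 barcode. Of 15 lipid-handling genes 4 were 2-fold lower, namely Nr1h3, Cd63, Cd36 and Acp5, and Lpl was higher. Class II genes had 0 of 9 past 2-fold and a median of 0.08, and dissociation stress genes had 0 of 21 past 2-fold and a median of 0.07.

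Parts of other lists were lower in CD4-Cre, again beside 2.5% of all genes 2-fold lower and 1.01% higher. Of 11 iron and heme genes 4 were 2-fold lower, among them Cp, the ceruloplasmin gene, at 37.7 and 6.41 CPM. Hpgd, which breaks down prostaglandins, was at 58.3 and 15.6 CPM. Of 10 growth factor and matrix genes 3 were 2-fold lower, with Igf1 at 96.1 and 25.6 CPM. Of 12 genes for uptake of apoptotic cells 3 were 2-fold lower, Gas6, Cd36 and Stab1, the last a scavenger receptor at 256.5 and 81.5 CPM. Of 11 type I interferon genes 2 were 2-fold lower, with Irf7 at 71.2 and 24.7 CPM. Among 6 Fc receptor genes, Fcgrt, which recycles antibodies, was at 432 and 183 CPM. Class I genes had 0 of 15 past 2-fold and a median of -0.25, and the 22 interferon-gamma genes a median of -0.15 with 2 lower.

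Some complement genes other than C1q were lower in CD4-Cre. C4b was at 221 and 42.1 CPM and C3 at 190.4 and 84.3 CPM. C5ar1, the C5a receptor, was at 278 and 147 CPM, while Cfp, which encodes properdin, was at 800.3 and 741 CPM. The C1q chains, whose sum chose the members, were at 5918 and 4016 CPM for C1qa, 5577 and 4080 CPM for C1qb, and 4661 and 3095 CPM for C1qc. In scavenger-high barcodes C1qa was at 6869 and 6426 CPM.

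**Figure D5:**
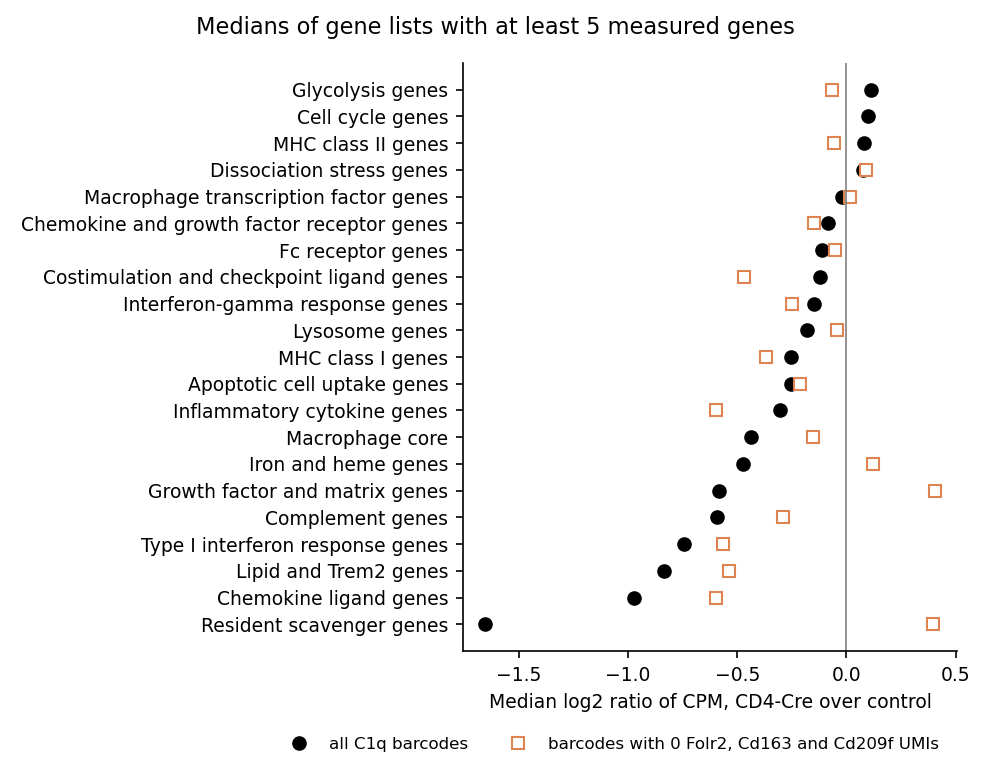
Median log2 ratio of CPM (x axis, CD4-Cre over control) of gene lists (y axis), over all C1q barcodes (filled circles) and over those with 0 Folr2, Cd163 and Cd209f UMIs (open squares). Resident scavenger genes lie lowest at -1.65 over all members and at 0.40 in the scavenger-negative ones, while chemokine genes lie at -0.97 and -0.60.

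The scavenger-negative members were also compared between libraries. Of 3597 genes, 76 (2.11%) were 2-fold lower in CD4-Cre and 63 (1.75%) 2-fold higher. Only 11 of the resident scavenger genes were measured there, and 3 were 2-fold higher and 0 lower, with a median of 0.40. F13a1 was at 126 CPM (17 of 69 barcodes) in control and 328 CPM (48 of 83) in CD4-Cre (log2 ratio 1.38, 1.03 to 1.74). Ccl24, an eosinophil attractant, was at 41.6 and 132 CPM, but 1 barcode held 62.5% of its CD4-Cre UMIs. Ear1 was at 6.94 and 72.2 CPM, in 5 and 24 barcodes. Mcub was at 52.7 and 181 CPM.

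Chemokine genes of the negative members went both ways. Of 16 measured, 7 were 2-fold lower in CD4-Cre and 5 higher, where 2.11% of all genes were lower and 1.75% higher. Cxcl9 was at 1118 and 373 CPM and Cxcl10 at 315 and 117 CPM, in 26 and 17 and in 11 and 3 barcodes. Ccl2, the ligand of CCR2, was at 63.8 CPM (12 barcodes) and 181 CPM (29 barcodes), a log2 ratio of 1.51 (1.02 to 2.02), and Ccl6 and Ccl9 had ratios of 1.09 and 1.07. Of 10 measured cytokine genes 4 were 2-fold lower, with ratios of -2.03 for Il12b, -1.93 for Il18bp and -1.18 for Il1rn, and Tnfaip3 at 73.5 and 36.7 CPM. Of 19 measured interferon-gamma response genes 3 were 2-fold lower, with a median of -0.25. H2-M2 was at 765 CPM in 30 barcodes and 195 CPM in 16, Acp5 at 777 and 298 CPM, and Mmp14 at 159.6 and 54.5 CPM.

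Among scavenger-positive members, resident scavenger genes were lower in CD4-Cre, and other macrophage genes were lower too. Of 1947 genes, 126 (6.47%) were 2-fold lower in CD4-Cre and 63 (3.24%) 2-fold higher, and without the 3 genes that chose these barcodes 19 of 23 measured resident scavenger genes were 2-fold lower, with a median of -1.79. The drop was not particular to this list. Of 15 measured macrophage core genes outside the rule, 7 were 2-fold lower and 0 higher, with a median of -0.93. Of 25 lysosome genes 5 were 2-fold lower and 0 higher, with a median of -0.46. Pf4 was at 1777 and 426 CPM and Apoe at 9886 and 3842 CPM. Class II genes were above 0 in 8 of 9 with a median of 0.36. In CD4-Cre, 19 of these 23 barcodes had under 10 scavenger UMIs, against 23 of 51 in control.

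RNA of acinar cells was found in both sets of members. The acinar gene list was at 4802 CPM in positive and 978 CPM in negative control members. In CD4-Cre the gap in summed level rested on 1 barcode. There positive members were at 3261 and negative ones at 959 CPM, but 1 barcode held 72.3% of the positive UMIs and the other 22 were at 938 CPM. Without the highest barcode of the positive control set the other 50 were at 3620 CPM. After thinning to 3000 UMIs, acinar UMIs were in 83.7% of 49 positive and 43.5% of 62 negative control members. In CD4-Cre they were in 91.3% of 23 positive and 61.25% of 80 negative members, so a gap in detection was seen in both libraries. Scavenger-high members were at 7453 CPM in control (28 barcodes) and 1229 CPM in CD4-Cre (4 barcodes). The acinar list was at 877 and 393 CPM in the monocyte, 454 and 465 CPM in the dendritic, 329 and 502 CPM in B cell and 177 and 1026 CPM in T cell barcodes, where 1 barcode held 74.8% of the CD4-Cre T cell UMIs. Of these, the control monocyte level came near that of negative members. The CD4-Cre T cell level did so mostly through 1 barcode, and the others were lower. After the same thinning, acinar UMIs were in 39.1% and 30.5% of monocyte and 50% and 43.5% of dendritic barcodes. The shares were 12.7% and 10.2% for B cell and 11.2% and 11.9% for T cell barcodes. Insulin genes had another pattern. Ins1 and Ins2 were at 608 CPM (552.2 to 667.4) in negative control members and 291 CPM (255 to 331.6) in negative CD4-Cre members, with UMIs in 36.2% of 69 and 16.9% of 83 barcodes. After thinning to 3000 UMIs these shares were 27.4% and 15.0%. Positive members were at 341 and 79.3 CPM, with 71.1% and 83.3% of these UMIs in 1 barcode each. Scavenger-high control members had 3 insulin UMIs in 28 barcodes (11.8 CPM), and the 20 UMIs of the 4 CD4-Cre ones were in 1 barcode. In B cell barcodes insulin was at 1.53 and 1.97 CPM, in T cell barcodes at 9.64 and 13.7 CPM, and in the monocyte barcodes at 3.85 and 5.69 CPM. Dendritic barcodes held 55.5 and 15.3 CPM, with a UMI in 23.1% of 39 and 6.12% of 49. The part of free RNA, uptake or attached cells in these levels was not tested.

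Genes of other blood cells were counted in the members as well. Monocyte genes summed to 2167 CPM in control and 2655 CPM in CD4-Cre, with 2 and 1 of 14 genes at 0. The cDC2 list was at 1088 and 1191 CPM with 0 of 10 genes at 0, and 9 members in each library held 2 or more Cd209a UMIs, 5 and 4 of them scavenger-positive. Ccr7, which guides dendritic cells to lymph nodes, had 3 UMIs in 3 control members and 50 UMIs in 2 CD4-Cre members. The NK list was at 61.8 CPM with 6 of 9 genes at 0 in control, and at 199 CPM with 0 of 9 at 0 in CD4-Cre. The CD4-Cre level rested mostly on 2 barcodes. A scavenger-positive barcode held 88.1% of the 118 UMIs of positive members, or 47.9% of all. A scavenger-negative barcode held 74.7% of the 99 UMIs of negative members. Ncr1, a natural killer receptor gene, had 29 UMIs, all in CD4-Cre. Neutrophil genes were at 73.8 and 33.0 CPM, with S100a9 at 1 and 0 UMIs. The part of these cells in the differences above was not tested.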

How the data were processed

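Single-cell RNA was measured in 4 mouse libraries, of which the 2 pancreas libraries were compared. The deposited values are whole counts of UMIs per gene and barcode, not normalized. Per the submitters' processing notes, Cell Ranger and mm10 were used, and a header line in each matrix gives 3.0.0 as the software version. How reads of near-identical genes were assigned, and the strain, were not given in the sources used here. The deposited lists held 4524 and 6963 pancreas barcodes with 20807342 and 32798133 UMIs. Of 31053 gene identifiers, 31011 matched GENCODE M21.

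Members were gated on raw UMIs, and counts were summed per library and set and scaled to CPM. Log2 ratios carry exact conditional 95% intervals, sums Poisson intervals, shares exact Clopper-Pearson intervals, and differences of shares intervals combined from these limits. All cover counting error only. With 1 library per group no test was made, and a gene was called past a 2-fold difference. Genes needed 50 UMIs in total, or 25 in each library for the split. Counts of 0 were left as 0, and a floor of 3 UMIs served only as a reference level beside the count of Pou2af1. Doublets were handled by the lymphocyte limits of the rule. Scores from Scrublet in scanpy 1.11.5, removed at 0.8% per 1000 barcodes, served as an alternative and marked 1 and 4 members.

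Named genes of the genotype comparison were the 12 highest and 12 lowest ratios. They needed 50 UMIs in the higher library, 1 in the other, an interval without 0, at most 25% of UMIs in 1 barcode, and a level at least 0.5 times that of other barcodes. For the split they were the 12 highest and 12 lowest by the smaller of both libraries' ratios. Receptor, immunoglobulin, haemoglobin, mitochondrial, ribosomal, acinar and islet list genes were left out of both. The members, gene lists and rules were chosen with earlier results of these data known. Promoter sequences are from RefSeq on GRCm38.p6. Alternatives covered other UMI limits, thinning, denominators, edgeR 4.0.16 library sizes, DESeq2 1.42.0 size factors, equal barcode weights, a pseudocount of 10 CPM and other gene minimums. Python 3.11.15, scipy 1.17.1 and R 4.3.3 were used. The code for ratios and intervals was run on simulated Poisson counts. These hold no spread between barcodes, so the run checks the code only. Results for a few genes are not reported here.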

Additional observations from a re-analysis of the deposited data

Results flagged for a closer look

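Among listed and reported genes measured in both sets, 10 had ratios of CD4-Cre over control of opposite sign in scavenger-positive and scavenger-negative members, with neither counting interval including 0 and at least one ratio past 2-fold. These criteria were set after the values had been seen. The share of all measured genes that met them was not counted, so the 10 genes stand without a background. With 1 library per group the difference was not tested. In 5 of them the ratio was above 0 in negative members and below 0 in positive ones. The log2 ratios in negative and positive members were 1.38 and -1.14 for F13a1, 1.51 and -1.44 for Ccl2, and 1.66 and -2.04 for Ccl24. For Selenop, which encodes a selenium transport protein, they were 0.40 and -1.52, and for Timp2, an inhibitor of matrix proteases, 0.40 and -1.27. In the other 5 genes the signs were the other way round. Ccl5 had -1.37 in negative members, and 2 and 125 UMIs among positive ones, where 1 barcode held 53.6% of the CD4-Cre UMIs. Cxcl9 had -1.59 and 0.88, but its UMIs among positive members lay in 1 control and 2 CD4-Cre barcodes. For Cxcl2, a neutrophil attractant, the ratios were -0.39 and 1.13, for the galectin gene Lgals3 -0.37 and 1.39, and for the transcriptional regulator Id2 -0.51 and 1.88. These ratios share their split with the rule, and 19 of the 23 CD4-Cre positive members had under 10 scavenger UMIs.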

How the results depend on the processing

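No paired analysis was possible because each group had 1 library. The share of members among pancreatic barcodes differed by -1.20 to -1.49 points under 8 settings, and the difference was -3.02 points among barcodes without lymphocyte genes. The scavenger-positive share differed by -19.6 to -23.3 points under 7 settings. Of genes past 2-fold between libraries, 50 higher and 124 lower, a pseudocount of 10 CPM left 21 and 74, a minimum of 200 UMIs 11 and 41, and a minimum of 20 UMIs gave 195 and 336. In members with 0 scavenger UMIs 76 were lower, and there the median of resident scavenger genes turned to 0.40. Higher genes numbered 35 in positive members set at 2 UMIs, against 63, and 37 in negative members with the pseudocount, against 63. Of genes past 2-fold across the split in both libraries, 60 higher and 67 lower, 107 were lower with the split at 2 UMIs, 24 and 32 remained in number after thinning to 3000 UMIs, 42 were lower with the pseudocount, 10 and 18 passed at 100 UMIs, and 110 and 158 with the split at 10 UMIs. In CD4-Cre, Ctrl turned to -0.50 after thinning and -0.725 at 10 UMIs, and Adgrg5 to 0.083 after thinning. The causes were not tested. Higher minimums and thinning leave fewer genes or UMIs, while another limit of the split moves barcodes between the sets. In CD4-Cre, the barcode with most acinar UMIs (714) held 2 scavenger UMIs, so it counted as negative with the split at 10 UMIs. Of 304 recomputed list medians 255 stayed within a fixed log2 margin of the main value, 48 moved further and 1 reversed. For named genes the margin was the counting interval of the main value. The same numbers were 305, 296, 9 and 0 in the genotype comparison, and 279, 241, 35 and 3 in the split. The split at 10 UMIs, the limit on Cd209a and the members with 0 scavenger UMIs were settings chosen after seeing the data. Only 4 CD4-Cre barcodes were scavenger-high, which limits every level there.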

Other observations

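The lymph node libraries, which were selected for CD3, held 3 barcodes in control and 5 in CD4-Cre that met the rule for C1q macrophages. Their median depths were 2429 and 796 UMIs, their median C1q counts 13 and 14 UMIs, and none held a UMI of Folr2, Cd163 or Cd209f.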
